A study of Mus musculus with 90 samples.

Results

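The 7 genes that encode the subunits of the NMDA receptor (Grin1, Grin2a, Grin2b, Grin2c, Grin2d, Grin3a and Grin3b) were followed across the striatum and the cortex of Q175 knock-in and wild-type mice. They were chosen as the listed members of the family, matched by symbol to Ensembl gene IDs, and all 7 were found among the 38561 gene IDs of the count table. Total RNA from both tissues of the right hemisphere of 45 C57BL6/J mice was sequenced at 9 months of age, 1 library per tissue and mouse, giving 90 libraries in 10 groups. Q175 mice are homozygous for a knock-in allele of Htt with an expanded CAG repeat and serve as a model of Huntington's disease. PF-02545920 inhibits PDE10A, a phosphodiesterase that degrades cyclic nucleotides and is abundant in the medium spiny neurons of the striatum. Every mouse had received the compound or its vehicle orally, once a day, starting at 5 weeks of age. Each tissue had 7 Q175 mice on vehicle, 10 Q175 mice at 0.32 mg/kg, 10 Q175 mice at 1.0 mg/kg, 9 Q175 mice at 3.2 mg/kg and 9 wild-type (WT) mice on vehicle, with 5 females in each group. No WT mouse received the compound, so the dose comparisons hold for Q175 mice only, and no heterozygous mice were included. Replicates are separate mice, named by sex and number within their arm.

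NMDA receptors are cation channels that open when glutamate and glycine or D-serine are bound and depolarisation has lifted a block by magnesium. Each receptor holds the obligatory GluN1 subunit, encoded by Grin1, together with GluN2 subunits (Grin2a to Grin2d), which bind glutamate and set the speed of the current, or GluN3 subunits (Grin3a and Grin3b), which bind glycine and lower calcium entry. In the striatum, cortical and thalamic axons release glutamate onto these receptors on medium spiny neurons, and receptors with GluN2B have long been studied in Huntington's disease models.

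The family shares a short, strongly conserved stretch in the third membrane segment, next to the channel gate. Its 21 coding bases, read from GENCODE M21 transcripts, are shown to make clear how alike the members are and that they can still be told apart, with capitals at the bases that differ from Grin1.
Grin1: tacactgccaacctggcagcc
Grin2a: tacacAgccaacctggcTgcc
Grin2b: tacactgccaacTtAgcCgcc
Grin2c: tacacGgccaaTctggcagcc
Grin2d: taTacAgccaaTctggcTgcc
Grin3a: tacacAgcGaacTtggcTgcT
Grin3b: tacacAgccaacctggcagcT
Between 2 bases (Grin2a, Grin2c and Grin3b) and 5 bases (Grin3a) differed from Grin1. The longest run of identical bases between any pair of members was 34 bases, between Grin2b and Grin2c. Genes on the opposite strand overlap exons of several members in that annotation, and whether strand was used in counting is not given in the sources used here. Grin1 shares 1307 exonic bases with its antisense gene Grin1os, Grin3b shares 1059 with Tmem259, and Grin2d shares 643 with Gm45441. Values of these members are uncertain to that extent, above all for Grin3b, which had a median of 0.9418 CPM in WT striatum, where Tmem259 averaged 102.1 CPM. CPM are counts per 1 M of a library's total, with that total adjusted by edgeR's TMM factors over all 90 libraries.

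The libraries held 30.5 M to 44.9 M counts in the striatum and 37.2 M to 45.8 M in the cortex. As a check of the labels, Htt fell in Q175 vehicle mice by 0.78 ± 0.0445 on the log2 scale (± standard error, SE) in the striatum, where it averaged 113.9 CPM against 197.8 CPM in WT mice, and by 0.81 ± 0.0791 in the cortex. Pde10a, the target of the compound, fell by 1.49 ± 0.0967 in the striatum, to 718.0 CPM on average in Q175 vehicle mice against 2015 CPM in WT mice. All 10 medium spiny neuron markers were higher, and all 8 cortical excitatory neuron markers lower, in the striatum than in the cortex of WT mice. In 10 libraries the genes with transcripts of 10000 bases or more were low against genes of 2000 to 5000 bases, by more than 3 scaled median absolute deviations below the tissue's median. These were WT F1 and F5, vehicle F5, 0.32 mg/kg F1 and F5 and 3.2 mg/kg F1 in the striatum, and 0.32 mg/kg F2 and M4 and 1.0 mg/kg F1 and F4 in the cortex. The members with the longest annotated transcripts in GENCODE M21, Grin2b (24060 bases) and Grin2a (14634 bases), were the ones they set apart, while the lengths behind the deposited values are not given. Grin2b ran from 14.39 to 28.72 CPM in the 6 striatal libraries of this kind, against 36.02 to 58.62 CPM in the other 39. In the cortex it ran from 11.06 to 51.37 CPM in the 4 such libraries, against 55.26 to 81.98 CPM in the other 41. The GC index of a library, the median log2 deviation of genes over 58% GC minus that of genes under 42% GC, also differed between groups, as given beside the dose comparisons.

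**Figure D1:**
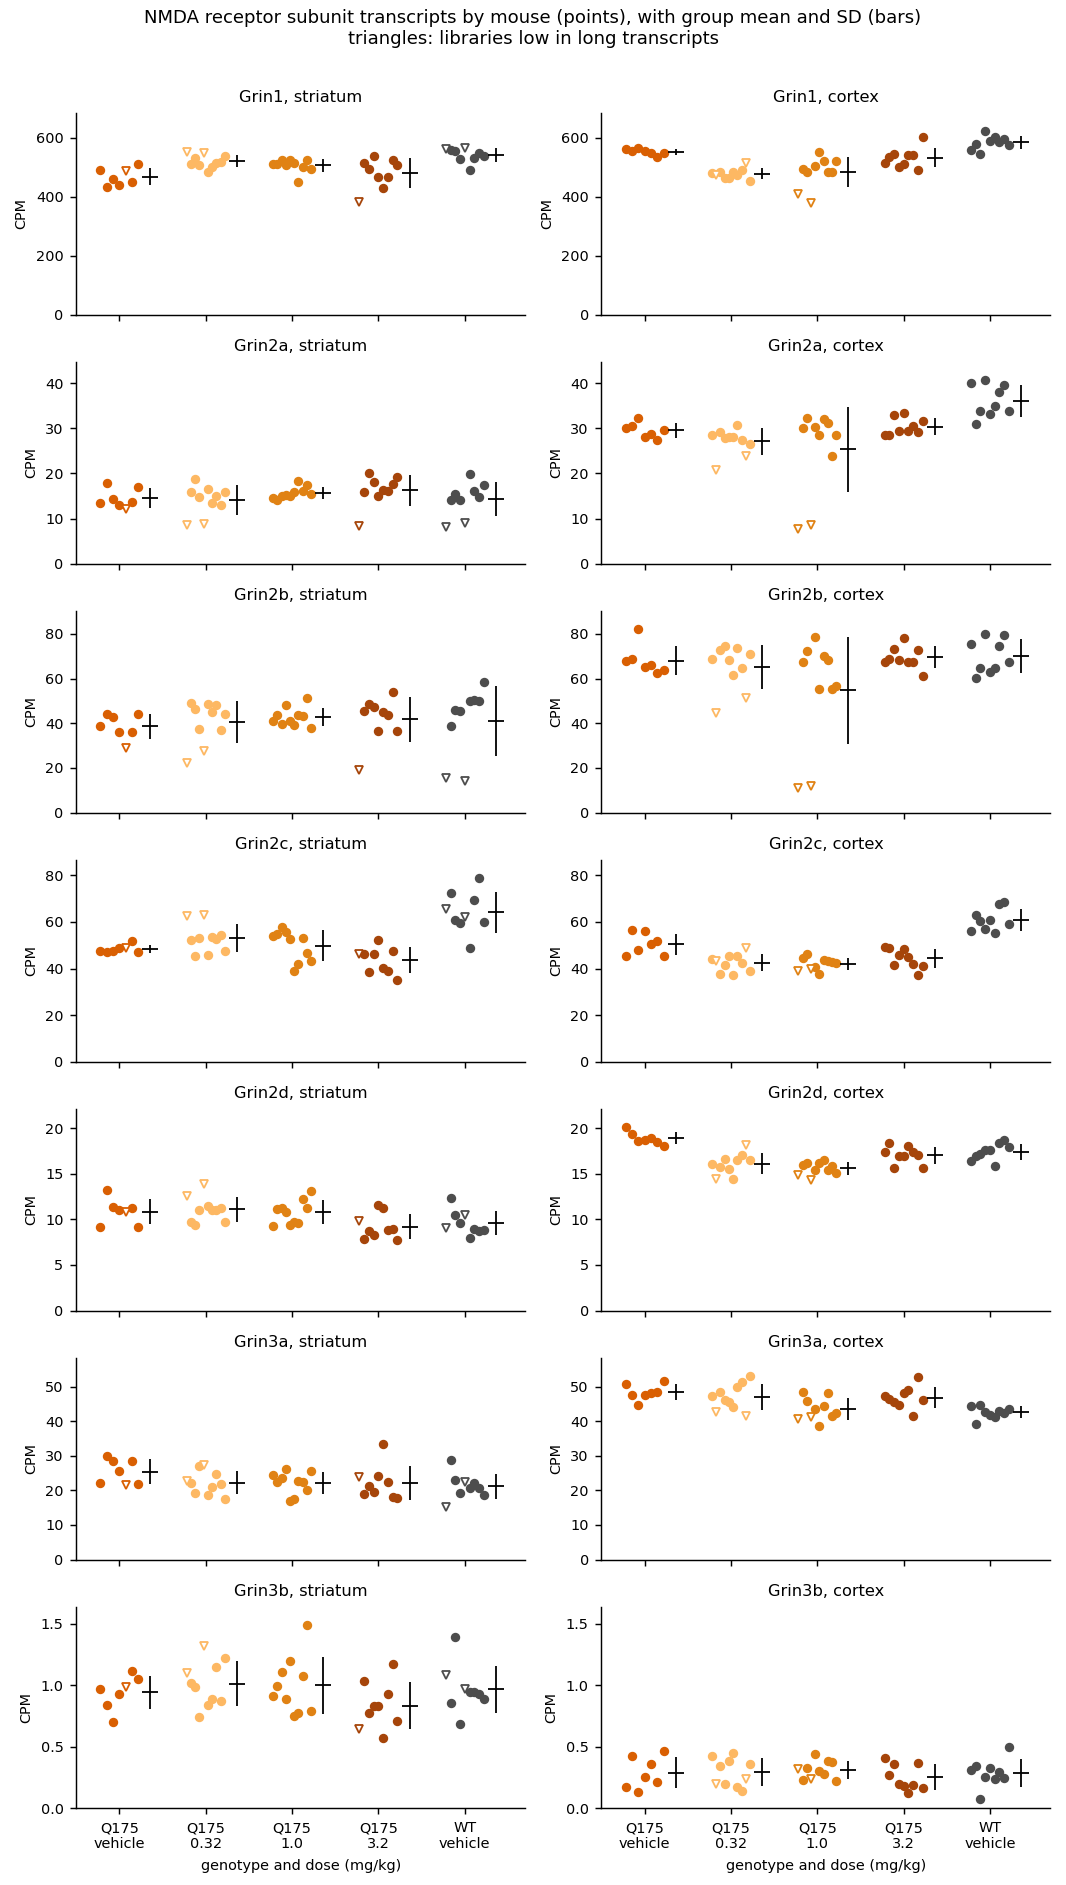
Level of each NMDA receptor subunit gene in every library, in CPM scaled by TMM factors over all 90 libraries, with the striatum in the left column, the cortex in the right and the arms on the x axis. Points are mice, crosses beside them give the group mean and SD, and open triangles are the 10 libraries low in long transcripts, where Grin2a and Grin2b are low (Grin2b down to 14.39 CPM in the striatum and 11.06 CPM in the cortex).

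Grin1 (GRCm38 chr2:25291181-25319187, minus strand), the subunit that every receptor needs, had group medians from 458.7 CPM in Q175 vehicle striatum to 585.1 CPM in WT cortex. Neighbours in the order of its 10 group medians overlapped in 9 of 9 pairs. Grin2a (chr16:9567898-9995560, minus strand), the GluN2 subunit of mature fast synaptic currents, had medians from 13.65 CPM in Q175 vehicle striatum to 34.89 CPM in WT cortex. The medians of its 5 cortex groups lay above those of its 5 striatum groups, and the step between the tissues was the 1 neighbouring pair of 9 without overlap. The tissues were not fully apart, as cortex at 1.0 mg/kg ran from 7.793 to 32.26 CPM and overlapped the striatum groups. Grin2b (chr6:135713233-136173511, minus strand), prominent early in development and kept in the adult forebrain, had medians from 38.57 CPM in Q175 vehicle striatum to 68.43 CPM in cortex at 0.32 mg/kg, with overlap in 9 of 9 neighbouring pairs. Grin2c (chr11:115249169-115267243, minus strand), best known from cerebellar granule cells and in the forebrain also reported in astrocytes, ran from 42.43 CPM in cortex at 1.0 mg/kg to 62.0 CPM in WT striatum. Both WT groups had the highest Grin2c medians, although neighbours again overlapped in 9 of 9 pairs. Grin2d (chr7:45831883-45878378, minus strand), a slowly deactivating subunit found in interneurons, ran from 8.794 CPM in striatum at 3.2 mg/kg to 18.69 CPM in Q175 vehicle cortex. Grin3a (chr4:49661611-49845744, minus strand), a glycine-binding subunit linked to immature synapses, had its lowest median, 20.72 CPM, in WT striatum and its highest, 48.01 CPM, in Q175 vehicle cortex. Grin3b (chr10:79970715-79977190, plus strand), the other glycine-binding subunit, was the scarcest, with medians from 0.2 CPM in cortex at 3.2 mg/kg to 1.002 CPM in striatum at 0.32 mg/kg, and 3 to 21 counts in a cortex library. For Grin2d and Grin3a the cortex groups, and for Grin3b the striatum groups, lay above all groups of the other tissue, and that step was again the 1 neighbouring pair of 9 without overlap.

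Levels of different members were compared per length, as FPKM. Grin1 was far above the rest in all 10 groups and did not overlap Grin2c, the next in order. In the striatum, median Grin1 was 121.6 FPKM in Q175 vehicle and 130.6 FPKM in WT mice, and median Grin2c 10.99 FPKM in Q175 vehicle and 13.46 FPKM in WT mice. Grin2b followed with medians of 5.42 FPKM in Q175 vehicle and 5.864 FPKM in WT striatum. Grin3a, Grin2a and Grin2d came next, and each overlapped its neighbour in the order in both of these groups. In the cortex the order was led by the same 3 genes, with medians in WT mice of 148.3 FPKM for Grin1, 13.44 FPKM for Grin2c and 9.305 FPKM for Grin2b. The ranges of Grin2c and Grin2b overlapped in the cortex of all 4 Q175 arms and did not overlap in WT cortex. Grin3b was last, with no overlap with Grin2d in any of the 10 groups.

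Among the 4 GluN2 genes, Grin2c made up a median of 51.63% of the summed FPKM in Q175 vehicle striatum and 56.25% in WT striatum. In the cortex its share was lower, at 36.78% in Q175 vehicle and 39.87% in WT mice, and Grin2b stood at 29.84% in Q175 vehicle and 27.53% in WT mice. The share of Grin2d in the cortex ran from 11.78% to 14.04% in Q175 vehicle mice, against 9.507% to 11.13% in WT mice, so the groups did not overlap. The log2 ratio of Grin2a to Grin2b in the cortex ran from -0.71 to -0.52 in Q175 vehicle mice, against -0.41 to -0.24 in WT mice, again without overlap. In the striatum that ratio had medians of -0.80 in Q175 vehicle and -0.89 in WT mice, and the ranges overlapped. Without the libraries low in long transcripts, its striatal medians were -0.81 in Q175 vehicle and -0.99 in WT mice, again with overlap. The striatal Grin2c share was then 50.23% in Q175 vehicle and 54.55% in WT mice. These shares describe transcripts in whole tissue, not the make-up of receptors, rest on gene lengths that the sources do not give, and were not tested.

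**Figure D2:**
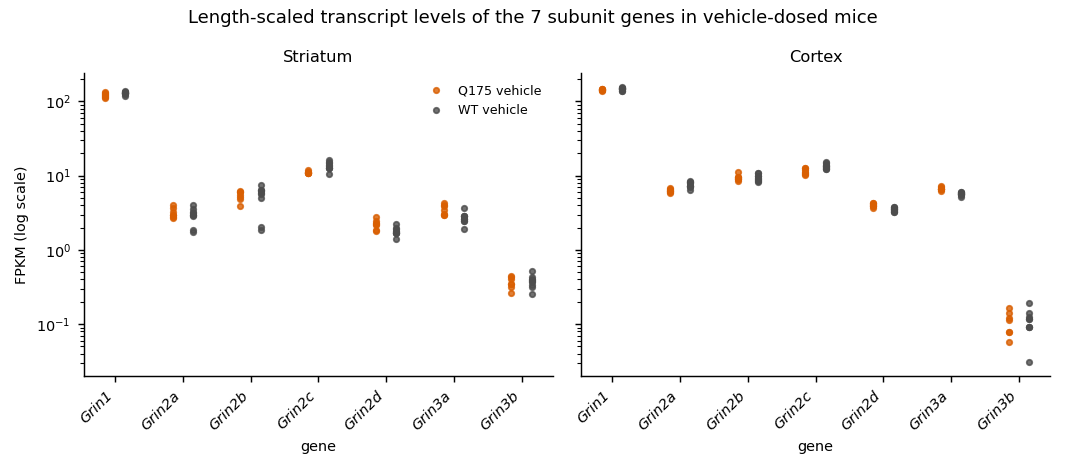
FPKM of the 7 subunit genes on a log axis in Q175 vehicle and WT vehicle mice of each tissue, with 1 point per mouse. Grin1 is highest (medians of 121.6 to 148.3 FPKM) and Grin3b lowest (0.1122 to 0.3809 FPKM) in all 4 groups, and the genes between them overlap in part.

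The striatum was first set against the cortex within the 9 WT mice, a comparison paired by mouse. Of the 7 members, 1 was higher and 5 were lower in the striatum (edgeR's quasi-likelihood test, adjusted p under 0.05), and 72.2% of all 16769 genes tested were called. The members' median log2 fold change was -0.87, beside 0.015 over all genes. Grin2a ran over 8.122, 14.79 and 19.9 CPM in the striatum (lowest, median and highest), against 30.94, 34.89 and 40.59 CPM in the cortex. It was lower in the striatum by a log2 fold change of -1.36 ± 0.122 (SE, n = 9 mice, adjusted p = 1.42e-07), and no striatal library reached the lowest cortical one. Grin3a stood at 15.1, 20.72 and 28.75 CPM in the striatum, against 39.22, 42.58 and 44.74 CPM in the cortex, a log2 fold change of -1.03 ± 0.0798 (adjusted p = 3.11e-08). Grin2d stood at 7.973, 9.096 and 12.36 CPM in the striatum, against 15.81, 17.57 and 18.67 CPM in the cortex, a log2 fold change of -0.87 ± 0.0601 (adjusted p = 8.9e-09). Grin2b, at 14.39, 45.72 and 58.62 CPM in the striatum against 60.35, 67.53 and 79.95 CPM in the cortex, was lower by -0.88 ± 0.191 (adjusted p = 0.000894). Its log2 fold change was -0.54 without the libraries low in long transcripts, which include WT F1 and F5 of the striatum. None of these 4 genes overlapped between the tissues, which was not set against the share of all genes without overlap.

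Grin3b went the other way, at 0.6882, 0.9418 and 1.395 CPM in the striatum against 0.07652, 0.293 and 0.502 CPM in the cortex (log2 fold change 1.72 ± 0.221, adjusted p = 6.95e-06), while the overlapping gene Tmem259 had -0.06 ± 0.0447 (adjusted p = 0.282). Grin1 was slightly lower in the striatum, at 491.4, 547.6 and 563.0 CPM against 546.0, 585.1 and 620.6 CPM in the cortex. Its log2 fold change of -0.12 ± 0.0352 (adjusted p = 0.00877) turned round to 0.13 (adjusted p = 0.00061) when offsets for GC content and length were added, so its direction depends on that scaling. Grin2c did not pass the test (0.06 ± 0.0404, adjusted p = 0.18), but with the offsets it was higher in the striatum (0.42, adjusted p = 4.39e-09). The summed level of the 8 cortical excitatory markers varied from 48.27 to 467.5 CPM among WT striata, against 1624 to 1789 CPM in WT cortex, and its part in these results was not tested. In whole tissue, fewer cells of a type and less RNA per cell cannot be told apart, here and in the comparisons that follow.

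The effect of the Q175 allele was read from vehicle-dosed mice. In the striatum, Grin1 and Grin2c fell in Q175 mice and no member rose, so 2 of 7 members were called, where 45.1% of all 17315 genes tested were called. The members' median log2 fold change was -0.01, beside 0.0 over all genes. Grin1 ran over 434.0, 458.7 and 510.8 CPM in Q175 mice, against 491.4, 547.6 and 563.0 CPM in WT mice, and fell by 0.21 ± 0.0459 on the log2 scale (SE, n = 7 and 9, adjusted p = 0.000143). The ranges overlapped in their upper and lower ends. With GC and length offsets the change was -0.12 (adjusted p = 0.0173), and on log2(FPKM + 0.1) values it did not pass the test (limma, -0.09, adjusted p = 0.0791). Those values were not scaled further between libraries, and on them the striatal Q175 effect over all genes was shifted upwards, as given in the last section. Grin2c had 46.89, 47.68 and 51.6 CPM in Q175 mice, against 48.69, 62.0 and 78.74 CPM in WT mice, a log2 fold change of -0.42 ± 0.0775 (adjusted p = 1.26e-05). The 7 Q175 mice lay close together, with their median below the lowest WT mouse and their highest inside the WT range.

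The other 5 members did not pass the test in the striatum. Grin3a stood at 21.42, 25.52 and 29.97 CPM in Q175 mice and 15.1, 20.72 and 28.75 CPM in WT mice, a log2 fold change of 0.26 ± 0.114 (adjusted p = 0.0632), and was called by DESeq2 (adjusted p = 0.0468), with only the 2 vehicle arms in the fit (adjusted p = 0.0497), with the offsets (adjusted p = 0.0384) and by limma on log2(FPKM + 0.1) values (0.37, adjusted p = 0.00493). Grin2d, at 9.139, 11.08 and 13.27 CPM in Q175 mice and 7.973, 9.096 and 12.36 CPM in WT mice, had 0.17 ± 0.0918 (adjusted p = 0.138), and was called with the offsets at 0.32 (adjusted p = 0.00569) and by limma at 0.285 (adjusted p = 0.0107). Both were higher in Q175 mice wherever they were called, and the limma values include the upward shift over all genes named above. Grin2a had a log2 fold change of 0.07 (95% interval -0.2 to 0.35) and Grin3b of -0.03 (-0.32 to 0.26). Grin2b, the subunit most often named in work on the disease, had -0.01 ± 0.185 (95% interval -0.38 to 0.35, adjusted p = 0.961), with 28.72, 38.57 and 44.19 CPM in Q175 mice and 14.39, 45.72 and 58.62 CPM in WT mice. Its WT range held F1 and F5, which were low in long transcripts. Without the libraries of that kind, Grin2b was lower in Q175 mice by -0.25 (adjusted p = 0.0177).

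In the cortex 3 of 7 members were called, where 30.4% of all 17603 genes tested were. Grin2c fell, and Grin2d and Grin3a rose, and the members' median log2 fold change was -0.03, beside 0.002 over all genes. Grin2c ran over 45.37, 50.32 and 56.47 CPM in Q175 mice, against 55.21, 60.35 and 68.75 CPM in WT mice, a log2 fold change of -0.28 ± 0.0581 (n = 7 and 9, adjusted p = 0.000203). Only the ends of the ranges met. Grin3a had 44.67, 48.01 and 51.55 CPM in Q175 mice, against 39.22, 42.58 and 44.74 CPM in WT mice, and rose by 0.19 ± 0.0457 (adjusted p = 0.00141). Again the lowest Q175 mouse lay just under the highest WT mouse. Grin2d rose by 0.12 ± 0.0397 (adjusted p = 0.0167), with 18.08, 18.69 and 20.11 CPM in Q175 mice and 15.81, 17.57 and 18.67 CPM in WT mice. That call was lost when Q175 vehicle F1 was left out (adjusted p = 0.0505).

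Grin2a was lower in the cortex of Q175 mice by a log2 fold change of -0.28 ± 0.158 that did not pass the test (adjusted p = 0.191), with 27.37, 29.64 and 32.27 CPM in Q175 mice and 30.94, 34.89 and 40.59 CPM in WT mice. Neither of these arms held a cortex library low in long transcripts, but the dosed arms that shared the estimate of the spread did. Without 1.0 mg/kg F1 and F4 its change was -0.29 (adjusted p = 0.000204), and with only the Q175 and WT vehicle arms in the fit it was also -0.29 (adjusted p = 0.000266). Grin1 likewise had -0.07 ± 0.0433 (adjusted p = 0.219), and -0.08 without those libraries (adjusted p = 0.0456). Its ranges overlapped, with 535.4, 555.9 and 564.2 CPM in Q175 mice and 546.0, 585.1 and 620.6 CPM in WT mice. Grin2b had -0.04 (95% interval -0.44 to 0.37) and Grin3b 0.01 (-0.51 to 0.54).

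**Figure D3:**
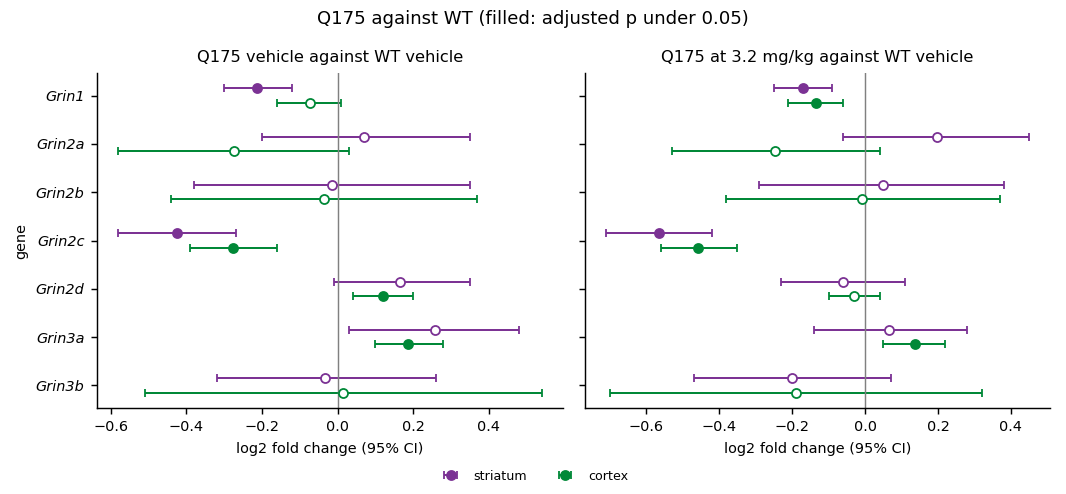
Log2 fold change of each subunit gene in Q175 vehicle mice (left) and Q175 mice at 3.2 mg/kg (right) against WT vehicle mice, with 95% intervals, for the striatum and the cortex. Filled points have an adjusted p under 0.05, and Grin2c lies below 0 in all 4 comparisons, from -0.28 in vehicle cortex to -0.57 in striatum at 3.2 mg/kg.

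A test of the difference between the tissues called none of the 7 members for the Q175 effect (edgeR), where 21.3% of 18014 genes were called. None of the members had an unadjusted p under 0.05, and DESeq2 and limma on FPKM values also called 0. The striatal change minus the cortical change was -0.13 ± 0.0684 for Grin1 (adjusted p = 0.173), -0.12 ± 0.0724 for Grin2c (adjusted p = 0.242) and 0.33 ± 0.228 for Grin2a (adjusted p = 0.342). The call of Grin1 in 1 tissue therefore does not show that its change differed between them.

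Cell type markers moved with genotype beside these genes, where 45.1% of all genes were called in the striatum and 30.4% in the cortex. Astrocyte markers, of interest for Grin2c, fell in 5 of 7 in each tissue, and their summed level ran from 1712 to 1835 CPM in Q175 vehicle striatum, against 1954 to 2281 CPM in WT striatum. In the cortex it ran from 1652 to 1899 CPM in Q175 vehicle mice, against 2042 to 2312 CPM in WT mice, so neither tissue overlapped. Gfap, which reactive astrocytes raise, rose in the striatum by 0.69 ± 0.149 (adjusted p = 0.000154). Medium spiny neuron markers fell in 9 of 10 in the striatum, with sums of 3382 to 3973 CPM in Q175 vehicle mice against 6521 to 9192 CPM in WT mice. GABA interneuron markers, of interest for Grin2d and Grin3a, fell in 5 of 7 in the striatum and 7 of 7 in the cortex, where Grin2d and Grin3a rose. Cortical excitatory markers fell in 6 of 8 in the cortex. The part of these markers in the results on the subunit genes was not tested.

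The 3 doses of PF-02545920 were each set against vehicle in Q175 mice, and all 3 comparisons share the same 7 vehicle mice. In the striatum Grin1 rose at 0.32 mg/kg, and no other member was called at any dose. Grin1 ran over 484.8, 516.1 and 551.0 CPM at 0.32 mg/kg, against 434.0, 458.7 and 510.8 CPM on vehicle, a log2 fold change of 0.16 ± 0.045 (n = 10 and 7, adjusted p = 0.0472). The ranges overlapped, and 2.49% of 17315 genes were called. The call was lost in 11 of 17 fits that left out 1 mouse and in 7 of the other settings, and with GC and length offsets the change was 0.01 (adjusted p = 0.993). At 1.0 mg/kg Grin1 stood at 449.8, 511.4 and 525.3 CPM, a log2 fold change of 0.13 ± 0.045 that did not pass the test (adjusted p = 0.114), and at 3.2 mg/kg it stood at 383.5, 494.7 and 539.2 CPM, with 0.05 ± 0.0458 (adjusted p = 0.931). The highest dose thus did not have the highest Grin1 level.

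At 1.0 mg/kg edgeR called 0 of 7 members, 1 had an unadjusted p under 0.05, DESeq2 and limma called 0, and 1.07% of all genes were called. At 3.2 mg/kg edgeR called 0 of 7 members, 1 had an unadjusted p under 0.05, DESeq2 and limma called 0, and 1.48% of all genes were called. Grin2d was that member, at 7.753, 8.794 and 11.61 CPM at 3.2 mg/kg against 9.139, 11.08 and 13.27 CPM on vehicle (log2 fold change -0.23 ± 0.0918, adjusted p = 0.375). Grin2c stood at 46.89, 47.68 and 51.6 CPM on vehicle, 45.38, 52.78 and 63.16 CPM at 0.32 mg/kg, 38.92, 52.8 and 57.93 CPM at 1.0 mg/kg and 35.2, 46.24 and 52.31 CPM at 3.2 mg/kg. All 3 of its doses overlapped vehicle. For Grin2a the log2 fold change at 3.2 mg/kg was 0.12 (95% interval -0.15 to 0.4), for Grin2b 0.06 (-0.3 to 0.42) and for Grin3a -0.19 (-0.41 to 0.03). Over the 4 Q175 arms in equal steps, edgeR called 0 of 7 members for a trend, where 1.77% of 17193 genes were called. Of the members 2 had an unadjusted p under 0.05, Grin2d (-0.08 ± 0.0304 per step, adjusted p = 0.271) and Grin2c (-0.06 ± 0.0261, adjusted p = 0.395), and DESeq2 and limma called 0.

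In the cortex several members fell at each of the 2 lower doses and no member was called at the highest, and the doses were not tested against each other. At 0.32 mg/kg Grin1, Grin2c and Grin2d fell (3 of 7, where 10.2% of 17603 genes were called), and at 1.0 mg/kg these 3 and Grin3a fell (4 of 7, where 20.7% were called). The members' median log2 fold change was -0.14 at 0.32 mg/kg and -0.24 at 1.0 mg/kg, beside 0.002 and 0.003 over all genes. Grin1 had 535.4, 555.9 and 564.2 CPM on vehicle, 451.5, 477.9 and 515.6 CPM at 0.32 mg/kg, 379.9, 489.6 and 550.6 CPM at 1.0 mg/kg and 491.5, 533.1 and 600.7 CPM at 3.2 mg/kg. It did not overlap vehicle at 0.32 mg/kg, with a log2 fold change of -0.22 ± 0.0423 (n = 10 and 7, adjusted p = 0.0011), and at 1.0 mg/kg it had -0.20 ± 0.0424 (n = 10 and 7, adjusted p = 0.000946). Without 1.0 mg/kg F1 and F4, the change at 1.0 mg/kg was -0.14 (adjusted p = 0.00386). For Grin1 all 10 mice at 0.32 mg/kg thus lay below all 7 vehicle mice, and the mice at 3.2 mg/kg spanned the vehicle range. Grin2d ran over 18.08, 18.69 and 20.11 CPM on vehicle, 14.45, 16.28 and 18.2 CPM at 0.32 mg/kg, 14.34, 15.66 and 16.56 CPM at 1.0 mg/kg and 15.59, 17.06 and 18.33 CPM at 3.2 mg/kg. Its log2 fold changes were -0.23 ± 0.0391 at 0.32 mg/kg (adjusted p = 0.000401) and -0.28 ± 0.0391 at 1.0 mg/kg (adjusted p = 2.03e-05), where it did not overlap vehicle.

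Grin2c had 45.37, 50.32 and 56.47 CPM on vehicle, 37.22, 42.76 and 48.73 CPM at 0.32 mg/kg, 37.67, 42.43 and 46.44 CPM at 1.0 mg/kg and 37.17, 44.87 and 49.22 CPM at 3.2 mg/kg. Its log2 fold changes were -0.24 ± 0.0571 at 0.32 mg/kg (adjusted p = 0.00673) and -0.25 ± 0.0571 at 1.0 mg/kg (adjusted p = 0.00171), with ranges that overlapped vehicle. Grin3a fell at 1.0 mg/kg, to 38.49, 43.02 and 48.27 CPM against 44.67, 48.01 and 51.55 CPM on vehicle (-0.15 ± 0.0448, adjusted p = 0.0116), and that call was lost without 1.0 mg/kg F1 and F4 (-0.14, adjusted p = 0.0527). Grin2a and Grin2b at 1.0 mg/kg had wide spreads, from 7.793 to 32.26 CPM and from 11.06 to 78.6 CPM, and their changes of -0.24 ± 0.156 and -0.33 ± 0.204 did not pass the test. Without F1 and F4, those changes were 0.01 for Grin2a and -0.03 for Grin2b.

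Cell type markers were read in the same cortical comparisons, where 10.2% of all genes were called at 0.32 mg/kg and 20.7% at 1.0 mg/kg. Of 7 astrocyte markers edgeR called 0 at either dose, with an unadjusted p under 0.05 for 1 at 0.32 mg/kg and 2 at 1.0 mg/kg, and with the GC and length offsets described next 1 was lower at 1.0 mg/kg. Of 7 GABA interneuron markers, 2 were higher at 0.32 mg/kg, and 2 were higher and 1 lower at 1.0 mg/kg. Vip rose by 0.21 ± 0.0522 at 0.32 mg/kg and 0.29 ± 0.0522 at 1.0 mg/kg, and Npy by 0.145 ± 0.0429 and 0.18 ± 0.0429, both neuropeptides of interneurons, while Kit fell at 1.0 mg/kg (-0.13 ± 0.0413). Of 5 microglia markers 1 was higher (P2ry12) and 1 lower (Csf1r) at each dose, and of 4 oligodendrocyte precursor markers 1 was lower at each (Cspg4, -0.24 ± 0.0687 and -0.33 ± 0.0687). Slc30a3 of the 8 cortical excitatory markers was lower at 0.32 mg/kg, and Bcl11b of the 10 medium spiny neuron markers and Flt1 of the 4 endothelial markers were lower at 1.0 mg/kg. The part of these markers in the results on the subunit genes was not tested.

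The GC index of the libraries differed between the same arms. In the cortex its median was 0.087 on vehicle, -0.096 at 0.32 mg/kg, -0.053 at 1.0 mg/kg, then 0.043 at 3.2 mg/kg, and 0.108 in WT mice. Grin1 (59.42% GC), Grin2c (62.08%) and Grin2d (65.0%), the members that fell at both doses, are GC-rich, and Grin2a (44.77%), Grin2b (45.66%) and Grin3a (49.18%) are less so. Grin3b is also GC-rich (63.45%) but did not pass the test, with log2 fold changes of 0.005 ± 0.265 at 0.32 mg/kg and 0.10 ± 0.261 at 1.0 mg/kg (adjusted p = 0.832), on few counts. In the striatum the index was -0.111 on vehicle, 0.09 at 0.32 mg/kg, 0.104 at 1.0 mg/kg, then -0.132 at 3.2 mg/kg. With offsets for GC content and length in the fit, no member was called at either dose in the cortex. Grin1 then had -0.09 at 0.32 mg/kg (adjusted p = 0.117) and -0.08 at 1.0 mg/kg (adjusted p = 0.111), Grin2d -0.001 (adjusted p = 0.997) and -0.05 (adjusted p = 0.528), and Grin2c -0.07 at both doses (adjusted p = 0.694 and 0.407). The offsets also lowered the number of all genes called, to 135 higher and 108 lower at 0.32 mg/kg and 474 higher and 286 lower at 1.0 mg/kg. As the index differed between arms, GC composition and dose cannot be told apart here, and the part of GC content in these results was not tested.

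**Figure D4:**
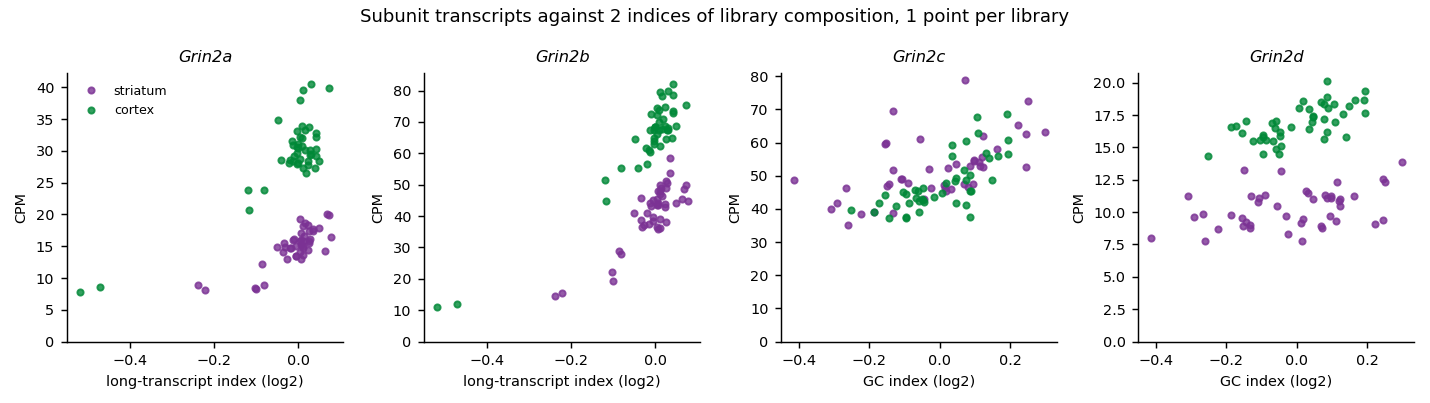
CPM of Grin2a and Grin2b against the long-transcript index, and of Grin2c and Grin2d against the GC index, with 1 point per library of all arms, for the striatum and the cortex. Both indices are median log2 deviations of gene classes over genes other than the members. The 2 cortex libraries at the far left of the first panels are 1.0 mg/kg F1 (index -0.519) and F4 (-0.471), and they have the lowest cortical Grin2a and Grin2b.

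At 3.2 mg/kg edgeR called 0 of 7 members in the cortex, and 0.0% of all genes. Of the members 2 had an unadjusted p under 0.05, and DESeq2 and limma called 0 of them. Of all genes 1307 had an unadjusted p under 0.05, DESeq2 called 3 and limma called 0. The 2 members were Grin2d, with a log2 fold change of -0.15 ± 0.0397 (adjusted p = 0.401), and Grin2c, with -0.18 ± 0.0581 (adjusted p = 0.475). Both stood between the lower doses and vehicle, and with the offsets Grin2d had -0.02. The trend over the 4 Q175 arms also gave 0 of 7 members with edgeR and 0.0% of 17477 genes. Grin2c (-0.05 per step) and Grin2d (-0.04) were the 2 members with an unadjusted p under 0.05, with an adjusted p of 0.949 each, and DESeq2 and limma called 0 of the members. Of all genes 756 had an unadjusted p under 0.05 for the trend, and DESeq2 and limma called 0. A difference between the tissues in the 3.2 mg/kg effect was called for 0 of 7 members by edgeR (0 with an unadjusted p under 0.05, 0 by DESeq2 and by limma), where 1.17% of 18014 genes were called.

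**Figure D5:**
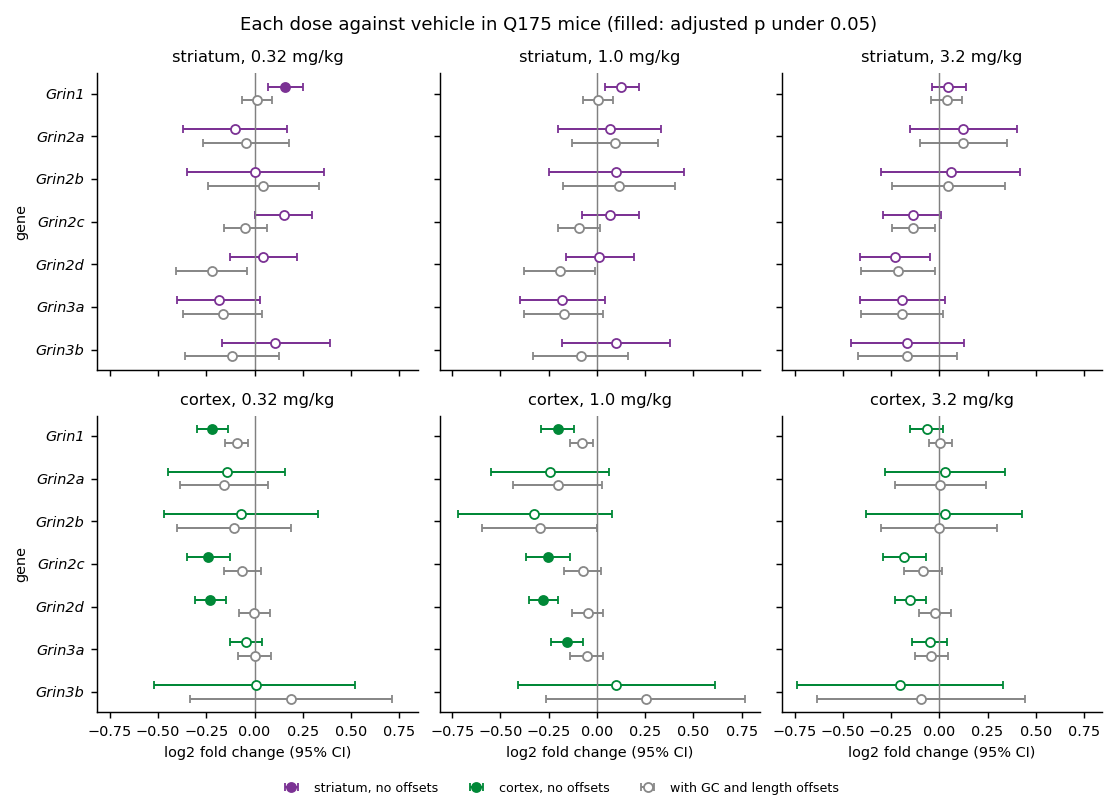
Log2 fold change of each subunit gene at 0.32, 1.0 and 3.2 mg/kg against vehicle in Q175 mice, with 95% intervals, in the striatum (upper row) and the cortex (lower row). Filled points have an adjusted p under 0.05, and grey points are fits with GC and length offsets, where Grin1, Grin2c and Grin2d in the cortex at 0.32 mg/kg move to -0.09, -0.07 and -0.001.

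Q175 mice at 3.2 mg/kg were also set against WT mice, a comparison that shares its mice with those above. In the striatum 2 of 7 members were called, both lower, where 51.0% of genes were called. Grin2c, at 35.2, 46.24 and 52.31 CPM at 3.2 mg/kg against 48.69, 62.0 and 78.74 CPM in WT mice, had a log2 fold change of -0.57 ± 0.072 (n = 9 each, adjusted p = 7.34e-09). Grin1 had -0.17 ± 0.0426 (adjusted p = 0.000891) and was not called with the offsets (-0.08, adjusted p = 0.0864) or by limma on FPKM values (-0.05, adjusted p = 0.291). In the cortex 3 of 7 members were called, 1 higher and 2 lower, where 38.3% of genes were called. Grin2c did not overlap, with 37.17 to 49.22 CPM at 3.2 mg/kg against 55.21 to 68.75 CPM in WT mice (-0.46 ± 0.0542, adjusted p = 2.81e-09). Grin1 was lower (-0.14 ± 0.0403, adjusted p = 0.00636) but not with the offsets (-0.03, adjusted p = 0.375) or by limma on log2(FPKM + 0.1) values (-0.085, adjusted p = 0.104), and Grin3a was higher (0.14 ± 0.0428, adjusted p = 0.00858). Grin2d had -0.03 (adjusted p = 0.569) and turned round to 0.14 with the offsets (adjusted p = 0.00253). Grin2a had -0.25 ± 0.146 (adjusted p = 0.186), and -0.25 (adjusted p = 5.92e-05) without the libraries low in long transcripts. It was also called without 1.0 mg/kg F1 and F4 alone (-0.25, adjusted p = 0.000519) and with only the 2 arms in the fit (-0.25, adjusted p = 0.000513). Grin2c was therefore lower than in WT mice in both tissues, on vehicle and at the highest dose, and it was called there with the offsets, with limma on log2(FPKM + 0.1) values and by DESeq2.

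The promoters of Grin1 and Grin2c, the pair that fell together in the Q175 striatum, are shown from RefSeq (GRCm38.p6) as the 250 bases before the gene start, given on the gene's own strand. An entry was found for 4 of the 7 members. Capitals mark GC boxes (GGGCGG), the motif bound by Sp1.
Grin1 (chr2:25319188-25319437, minus strand): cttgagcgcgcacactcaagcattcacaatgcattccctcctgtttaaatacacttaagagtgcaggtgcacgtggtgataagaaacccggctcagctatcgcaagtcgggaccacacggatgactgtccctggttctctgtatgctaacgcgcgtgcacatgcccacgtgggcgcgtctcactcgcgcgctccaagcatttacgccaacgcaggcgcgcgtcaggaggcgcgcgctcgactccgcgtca
Grin2c (chr11:115267244-115267493, minus strand): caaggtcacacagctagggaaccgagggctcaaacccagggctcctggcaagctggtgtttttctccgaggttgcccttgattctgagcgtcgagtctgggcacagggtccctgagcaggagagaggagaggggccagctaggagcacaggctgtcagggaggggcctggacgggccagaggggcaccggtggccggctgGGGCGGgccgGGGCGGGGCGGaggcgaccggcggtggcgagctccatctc
Searched on both strands, the Grin2c window held 3 GC boxes and the Grin1 window 0, and 32.7% of 32851 mouse promoter windows of 250 bases held at least 1. The Grin1 window held 2 copies of the short cyclic AMP response motif TGACG, which 17.8% of all windows hold, and the Grin2c window 0. A match says only that the letters are present.

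Genes that work with the receptor were read from 5 lists. In the Q175 vehicle striatum, 6 of 30 scaffold and transport partners were higher and 13 lower than in WT mice (median log2 fold change -0.09). Of all 17315 genes tested there, 45.1% were called, 3794 higher and 4023 lower, with a median of 0.0, so a list's share of calls is read against that background. Neto2, an auxiliary subunit best known for kainate receptors, fell by 1.09 ± 0.0714, Actn2, which links GluN subunits to actin, by 1.08 ± 0.0894, and the postsynaptic scaffold Shank3 by 0.87 ± 0.0738. Of 24 enzymes that bind the receptor or act on it, 2 were higher and 16 lower (median -0.22), among them Ppp3ca, the catalytic subunit of calcineurin (-0.85 ± 0.0584), Camk2b, a calcium-dependent kinase (-0.65 ± 0.048), and Ptpn5, the phosphatase STEP (-0.76 ± 0.0684). Of 9 genes of glutamate uptake and release, 0 were higher and 5 lower (median -0.29), including Slc1a2, the main astrocyte glutamate transporter (-0.52 ± 0.0525), and Glul, glutamine synthetase (-0.56 ± 0.0638). Of the 12 genes tested that handle glycine and D-serine, the co-agonists, 3 were higher and 4 lower (median -0.01), with Gldc, which breaks down glycine, at -0.36 ± 0.0653 and Psat1, of serine synthesis, at 0.22 ± 0.0502. Of 8 kynurenine pathway genes tested, whose products act on the receptor, 1 was higher (Afmid, 1.07 ± 0.114) and 2 lower (Ido1, -0.93 ± 0.0927).

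In the Q175 vehicle cortex the scaffold list had 1 higher and 15 lower (median -0.11), the enzymes 3 and 12 (median -0.07), uptake and release 0 and 4 (median -0.13), glycine and D-serine handling 3 and 1 (median 0.02) and the kynurenine pathway 1 and 3 (median -0.02), where 30.4% of all genes were called, 2463 higher and 2893 lower. Camk2a, the kinase that docks on GluN2B, fell by 0.58 ± 0.0425, Homer1 by 0.69 ± 0.095 and Dlg4, which encodes PSD-95 and anchors GluN2 tails, by 0.17 ± 0.0258. With GC and length offsets the scaffold list had 7 higher and 14 lower in the striatum and 1 and 14 in the cortex, and the enzymes 3 and 14 in the striatum and 3 and 12 in the cortex. The share of all genes called with the offsets is not given here for these comparisons. At 3.2 mg/kg in the striatum, where 1.48% of all 17315 genes were called, 1 gene of the 5 lists was called, Homer1, an activity-induced scaffold. Homer1 averaged 153.7 ± 38.11 CPM at 3.2 mg/kg and 91.03 ± 7.153 CPM on vehicle (SD, n = 9 and 7), a log2 fold change of 0.75 ± 0.114 (SE, adjusted p = 1.36e-05). This change differed from that in the cortex (difference 0.74 ± 0.121, adjusted p = 5.26e-05). In the cortex at 1.0 mg/kg, where 20.7% of all genes were called, 8 of 30 scaffold genes were lower and 1 higher, among them Shank1 (-0.41 ± 0.0767) and Shank3 (-0.28 ± 0.0608), and with the offsets 1 was lower and 1 higher.

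As a description of which genes varied most like each member, log2 CPM was correlated over the 45 libraries of a tissue, which share depth and base and length composition. Grin2a and Grin2b varied together, with Pearson's r of 0.871 in the striatum and 0.951 in the cortex, but 0.498 over 39 and 0.526 over 41 libraries without those low in long transcripts. In the cortex the genes most like Grin2b included Tnr (0.975) and Klf12 (0.97), and those most like Grin2a included Kcna2 (0.968) and Add2 (0.968). Without the libraries low in long transcripts other genes came first over the 41 left, with lower values, Pnmal1 (0.779) for Grin2b and Sort1 (0.828) for Grin2a. Over all 45 libraries, the genes most like Grin1 were Srcin1 (0.936), Tmem94 (0.935) and Slc12a5 (0.932) in the cortex. In the striatum they were Icam5 (0.892), Grik5 (0.89) and Adgrb2 (0.87). Grin2c went with P3h3 (0.936), Ppp1r9b (0.926) and Ppp1r37 (0.922) in the cortex, and with Slc9a3r1 (0.929), Crocc (0.908) and Ppp1r37 (0.908) in the striatum. For Grin2d the highest values were with Pcdh8 (0.809) in the striatum and Helz2 (0.826) in the cortex, and for Grin3a with Kcnj16 (0.824) in the striatum and Pcdh17 (0.791) in the cortex. Grin3b had no gene above 0.693 (Mypop, striatum). Several of these lists also changed without the libraries low in long transcripts. Plec (0.942) then came first for Grin1 in the cortex and C2cd2l (0.911) in the striatum. For Grin3a it was Angpt1 (0.83) in the striatum and Syt9 (0.823) in the cortex. Sin3b (0.815) led for cortical Grin2d and Crocc (0.927) for striatal Grin2c, while P3h3 for cortical Grin2c and Pcdh8 for striatal Grin2d stayed first.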

How the data were processed

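The values the authors deposited are an estimated count (expected count) and an FPKM value for each gene and library, FPKM being a count divided by gene length and library depth. The submitters' processing notes name CASAVA 1.8.2 without its role. No source used here gives the aligner, quantifier, genome build, annotation or strand setting. GENCODE M21 (GRCm38) gave symbols to 36639 of the 38561 Ensembl IDs, which hold 99.68% of the counts. Rounding to whole numbers came before testing, as only 81.5% of counts were whole (tolerance 1e-06). The 7 members and the gene lists were chosen with earlier results of these data known.

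Each tissue's 45 libraries entered a single edgeR (4.0.16, R 4.3.3) quasi-likelihood model of arm and sex, with TMM scaling and edgeR's own expression filter. A gene was called when its p, adjusted over all genes tested by the Benjamini-Hochberg method, was under 0.05, and a standard error is the log2 fold change divided by the square root of F. For the dose trend, the arms of the 36 Q175 mice were coded in equal steps. The WT tissue comparison and the differences between tissues used the mouse as a block, since the labels give an animal number (median r 0.17 between the tissues of a mouse over 45 mice, lowest -0.023). The lowest chi-square per degree of freedom between any pair of libraries was 3.31, so none agreed within sampling noise. Alternatives were DESeq2 (1.42.0), RLE factors, no filter, limma (3.58.1) on log2(FPKM + 0.1) and log2(FPKM + 1), and other terms and sets of libraries. The limma fits had no further scaling between libraries. Chosen after seeing the data were offsets for GC content and length, both of each gene's longest GENCODE M21 transcript, and leaving out libraries low in long transcripts. The genes to be named were all members, Htt and Pde10a, up to 4 called genes with the smallest p from each list and comparison described, and the 3 genes most correlated with each member, of which some are not reported here. Fits of these designs were also run on simulated counts with known changes, and their outcome is not given here. Those counts had the same spread for every gene and no differences between mice or in GC or long-transcript content.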

Additional observations from a re-analysis of the deposited data

Results flagged for a closer look

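Of 70 groups of a member in a tissue and arm, 7 held a mouse that stood apart from the rest of its group by Dixon's test at the 95% level, where chance alone gives about 1 in 20. Grin1 was high in the cortex of male 4 at 3.2 mg/kg (600.7 CPM), low in the striatum of male 2 at 1.0 mg/kg (449.8 CPM) and low in the striatum of WT male 1 (491.4 CPM). Grin2a (8.273 CPM) and Grin2b (19.15 CPM) were both low in the striatum of female 1 at 3.2 mg/kg, a library low in long transcripts. Grin2b was high in the cortex of Q175 vehicle female 3 (81.98 CPM). Grin3a was high in the striatum of male 1 at 3.2 mg/kg (33.49 CPM). In the striatum, WT male 1 (-0.414), male 2 at 1.0 mg/kg (-0.291) and male 1 at 3.2 mg/kg (-0.309) had the lowest GC index of their group. So did Q175 vehicle female 3 in the cortex (0.019). Female 1 at 3.2 mg/kg in the striatum (-0.267) and male 4 at 3.2 mg/kg in the cortex (0.076) did not. The causes were not tested.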

How the results depend on the processing

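Of 1120 results on the members recomputed under another setting, 1006 kept their direction and their side of the threshold, 23 lost the call, 21 gained it, 2 reversed and 68 moved without a call. Both reversals came with GC and length offsets: Grin1 in WT striatum against cortex to 0.129, and Grin2d in cortex at 3.2 mg/kg against WT to 0.143. With these offsets the number of members called was 4 for the striatal Q175 effect (2 as reported), 0 for the striatum at 0.32 mg/kg (1), 1 for the striatum at 3.2 mg/kg against WT (2), 0 for the cortex at 0.32 mg/kg (3) and 0 at 1.0 mg/kg (4). For the striatum at 0.32 mg/kg it was also 0 with RLE factors, without the filter, without the sex term, with the L field of the sample descriptions as a term, and without the libraries low in long transcripts. It was 1 for the striatum at 3.2 mg/kg against WT on log2(FPKM + 0.1). For the striatal Q175 effect it was 3 by DESeq2, by limma on FPKM values, with only the arms compared and without the libraries low in long transcripts, and for the cortex at 3.2 mg/kg against WT (3 as reported) it was 2 by limma on FPKM values and 4 with the offsets, with only the arms compared, without 1.0 mg/kg F1 and F4, and without the libraries low in long transcripts. For the cortical Q175 effect 5 were called (3 as reported) with only the arms compared, without 1.0 mg/kg F1 and F4, and without the libraries low in long transcripts. On log2(FPKM + 0.1) the striatal Q175 effect over all genes shifted by a median of 0.113, with 7223 genes higher and 2372 lower, against 3794 and 4023 as reported. DESeq2 called 7883 genes for that effect, where 7817 were called as reported. For the cortex at 3.2 mg/kg against WT 6739 genes were called as reported and 7502 by limma. With the offsets fewer genes were called in the cortex at 0.32 and 1.0 mg/kg, as given beside those comparisons. Numbers over all genes are not given here for the other settings, so those counts of members are not read against them.

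Same-numbered mice of different arms did not deviate together (median r 0.001 over 166 pairs), so the numbers do not pair them. With the replicate block Grin1 in the striatum at 0.32 mg/kg was 0.143 (adjusted p = 0.129), so 0 members were called there. Leaving out 1 mouse at a time gave 6 to 7 members called for the WT tissues, 2 to 4 for the striatal Q175 effect, 0 to 1 for the striatum at 0.32 mg/kg and 2 to 3 for the cortical Q175 effect, and did not alter the count in the other comparisons so tested. Grin3b, with 3 to 21 counts in a cortex library, is limited by depth. The causes of these differences were not tested.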
